A study of Rattus norvegicus with 8 samples.

Results

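The comparison described here sets whole blood of rats with DOCA–HS hypertension against whole blood of rats with AngII hypertension, at the time when hypertension had been established and before Chios mastic gum (CMG) was given. It takes the 4 libraries labelled as before treatment, of 8 in the series, and covers every gene in them. The 2 AngII libraries came from male Wistar rats that had carried an osmotic minipump delivering AngII at 0.4 mg/kg per day for 1 week. The 2 DOCA–HS libraries came from male Wistar rats that had received DOCA at 100 mg/kg once weekly under the skin, with 0.9% NaCl and 1% KCl in their drinking water, for 3 weeks. No library from normotensive rats or from the time before model induction was analysed here, so a higher level in one model cannot be told apart from a lower level in the other. The model cannot be told apart from the week of sampling, from minipump surgery or from the injections and the salt, which differed between the groups in the same way. Nothing states whether the 2 libraries of a group came from separate rats, so the p-values below measure the spread between these libraries, which may be technical.

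Angiotensin II (AngII) is the effector peptide of the renin–angiotensin system, which constricts vessels and stimulates aldosterone release from the adrenal cortex. Deoxycorticosterone acetate (DOCA) is a mineralocorticoid, and with a high salt intake it causes sodium retention while renin release by the kidney is suppressed. Whole blood carries RNA from reticulocytes, which still hold the transcripts of hemoglobin and heme synthesis, from platelets and from leukocytes, which respond to cytokines, glucocorticoids and bacterial products within hours. In such bulk samples fewer cells of a type and less RNA per cell cannot be told apart.

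The deposited table held 17446 genes, of which 6246 had no count in these 4 libraries and 7470 passed the filter on low counts. Total counts ran from 7628236 to 13205565 per library, and hemoglobin transcripts took 61.9 to 71.0% of them, so that 2297654 to 4490083 counts lay outside hemoglobin. Markers of red cells (Hbb, Alas2, Slc4a1), neutrophils (S100a8, S100a9), monocytes (Csf1r), T cells (Cd3e), cytotoxic lymphocytes (Nkg7) and platelets (Pf4) were counted in every library. The liver gene Alb and the heart muscle gene Myh6 had 0 counts in all 4, and the endothelial gene Cdh5 had 1 count in all. Typical genes differed by a median of 0.357 on the log2 scale between the AngII libraries and 0.289 between the DOCA–HS libraries, against 0.377 to 0.425 between libraries of different models (7388 genes with a mean of at least 10 counts). DOCA–HS replicate 2 stood apart in the ratio of the hemoglobin transcript LOC100134871 to Hbb, which was 0.140 there and 0.432 to 0.454 in the other 3, and values without this library are given where they move a result most.

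All differences below are log2 fold changes of DOCA–HS minus AngII, with standard errors from edgeR's quasi-likelihood fit. Levels are TMM-scaled CPM, in which a gene's counts are set against its library's filtered total multiplied by a TMM factor. These factors were 0.856 and 0.689 for the AngII libraries and 1.65 and 1.03 for the DOCA–HS libraries. The printed CPM are thus not plain shares of a library's counts. The study called a gene at a log2 fold change past 1.5 in either direction together with an unadjusted p no higher than 0.05. By this criterion 32 genes (0.428% of those tested) were higher and 27 genes (0.361%) were lower in DOCA–HS blood. At an unadjusted p of at most 0.05 with no limit on the fold change, 311 genes (4.16%) were higher and 770 genes (10.3%) were lower, 1081 in all. After Benjamini–Hochberg adjustment 0 genes (0%) had an edgeR p under 0.05, and the lowest adjusted p was 0.106, while DESeq2 gave 330 such genes, 2 higher and 328 lower. Both DOCA–HS libraries lay above both AngII libraries for 24.5% of genes and below both for 21.8%. Below, a gene or list member is called higher or lower at an unadjusted p of at most 0.05, and the adjusted p printed beside single genes was above 0.05 in each case. The counts by the criterion moved when a library was left out, to 171 higher and 52 lower without AngII replicate 1, to 104 and 90 without AngII replicate 2, to 42 and 82 without DOCA–HS replicate 1, and to 58 and 127 without DOCA–HS replicate 2.

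Scaling moved these counts as well. The median log2 fold change of all genes was 0.06 under TMM, 0.84 when libraries were scaled by total counts and 0.76 when scaled by counts outside hemoglobin. Of the genes past the criterion, 54.2% were higher in DOCA–HS blood under TMM, against 99.3% and 98.8% under the other scalings. The 27 lower genes stayed below 0 and the 32 higher genes above 0 under both. Of the 770 genes lower at an unadjusted p of at most 0.05, 569 stayed below 0 under total counts and 657 under counts outside hemoglobin, and all 311 higher genes stayed above 0. List medians are given beside the median of all genes for this reason.

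The clearest differences were genes that stood higher in AngII blood and lower in DOCA–HS blood, and they included feedback inhibitors of cytokine signalling and a neutrophil-attracting chemokine. Cxcl2, a chemokine that draws neutrophils through the receptor Cxcr2, stood at 10.5 and 13.7 CPM in the AngII libraries and at 1.51 and 0.477 CPM in the DOCA–HS libraries. Both DOCA–HS values were far below both AngII values, with a log2 fold change of −3.43 ± 0.42 (adjusted p = 0.106). Socs3, an inhibitor of cytokine receptor signalling induced by STAT3, stood at 69.0 and 22.8 CPM in AngII blood and at 9.39 and 4.53 CPM in DOCA–HS blood (log2 fold change −2.70 ± 0.51, adjusted p = 0.185). The AngII libraries differed from each other in Socs3. Its relative Socs1, an inhibitor of JAK kinases and of interferon signalling, was at 5.58 and 5.33 CPM against 1.39 and 1.31 CPM (log2 fold change −2.0 ± 0.34, adjusted p = 0.185). Rgs1, which shortens signalling by G protein-coupled chemokine receptors, was at 18.9 and 18.5 CPM against 4.1 and 1.43 CPM (log2 fold change −2.67 ± 0.41, adjusted p = 0.185). Dusp2, a phosphatase of MAP kinases in immune cells, was at 12 and 9.52 CPM against 2.58 and 4.77 CPM (log2 fold change −1.61 ± 0.34, adjusted p = 0.185). When each library was left out in turn, the log2 fold change ran from −4.59 to −3.06 for Cxcl2, from −3.34 to −1.69 for Socs3 and from −2.14 to −1.16 for Dusp2. That the groups did not overlap was a condition of the rule that named these 5 genes, so it adds nothing to their difference. The widest spreads within a model were those of Socs3 in AngII blood and of Cxcl2 and Rgs1 in DOCA–HS blood.

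Nfkbia, the inhibitor that NF-kB induces to end its own activity, was the tightest of the feedback genes. It stood at 71.8 and 69.1 CPM in AngII blood and at 27.0 and 25.6 CPM in DOCA–HS blood (log2 fold change −1.42 ± 0.23, adjusted p = 0.185), which falls short of the fold limit of the criterion. Of the 29 tested genes of the NF-kB feedback and cytokine list, 7 were lower and 4 higher at an unadjusted p of at most 0.05, against 10.3% and 4.16% of all genes. The lower members were Cxcl2, Socs3, Socs1, Nfkbia, Osm (−1.15), Nfkbiz (−1.12) and Nfkbib (−0.71), and the higher ones were Tnfaip2 (1.92), Il16 (1.09), Birc3 (0.92) and Nfkb2 (0.63). The list as a whole did not lean to one side, with a median of 0.25 beside 0.06 for all genes. Nfkbib was slightly above 0 under scaling by total counts. At the same p limit, 2 members were lower and 13 higher under total counts, and 4 and 15 under counts outside hemoglobin. The cytokine gene Il1b, the third most abundant member, ran from 19.8 to 77.3 CPM in AngII blood and was at 36.2 and 60.2 CPM in DOCA–HS blood, a log2 fold change of 0.00 ± 0.52.

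The promoters of 3 of these lower genes are shown because NF-kB and STAT factors are the textbook inducers of Cxcl2, Nfkbia and the SOCS genes, and because their windows hold the motifs. Each line holds the 250 bases before the start of the gene, 5′ to 3′ on the strand of the gene, from RefSeq on the GRCr8 assembly, which is not the rn6 assembly to which the reads were aligned. Capitals mark matches on either strand to the NF-kB motif GGGNNTTTC in Cxcl2 and Nfkbia and to the STAT motif TTCNNNGAA in Socs1, and no matches overlap.
Cxcl2, chr14:17467256-17467505, minus strand: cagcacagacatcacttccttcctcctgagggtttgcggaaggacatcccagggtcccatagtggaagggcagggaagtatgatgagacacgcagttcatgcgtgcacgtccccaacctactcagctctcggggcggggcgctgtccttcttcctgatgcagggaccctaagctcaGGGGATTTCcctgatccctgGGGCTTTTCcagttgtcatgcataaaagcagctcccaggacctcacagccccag
Nfkbia, chr6:78597073-78597322, minus strand: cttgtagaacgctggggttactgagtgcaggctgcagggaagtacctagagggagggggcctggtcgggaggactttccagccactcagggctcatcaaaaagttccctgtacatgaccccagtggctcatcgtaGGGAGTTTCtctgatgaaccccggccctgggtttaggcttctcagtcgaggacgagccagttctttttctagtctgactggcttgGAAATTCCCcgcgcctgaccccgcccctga
Socs1, chr10:5389324-5389573, plus strand: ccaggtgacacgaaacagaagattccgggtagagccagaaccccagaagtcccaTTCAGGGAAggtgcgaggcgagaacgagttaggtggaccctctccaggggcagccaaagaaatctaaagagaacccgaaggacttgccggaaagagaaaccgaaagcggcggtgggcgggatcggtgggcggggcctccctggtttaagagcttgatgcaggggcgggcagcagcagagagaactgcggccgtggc
The Cxcl2 window held 2 matches, whose first bases lie 74 and 54 bases before the start, the Nfkbia window held 2, at 115 and 30 bases, and the Socs1 window 1, at 196 bases. Of the 29 tested members of the NF-kB list, 24 had an entry among the promoters, and 6 of those 24 (25%) held GGGNNTTTC, against 3.68% of all 27457 promoters and 4.15% of the 6118 tested genes with an entry. They were Nfkbia, Nfkbiz, Nfkb2, Il1rn, Cxcl2 and Cxcl16, of which Nfkbia, Nfkbiz and Cxcl2 were lower and Nfkb2 higher in DOCA–HS blood by the counts above. TTCNNNGAA was held by 6 of the 24 (25%), against 7.52% of all promoters and 5.85% of tested genes. Among the 20 genes lower by the criterion that had an entry, 2 held GGGNNTTTC (Cxcl2 and Fscn1) and 1 held TTCNNNGAA (Socs1). A match of letters is not a binding site, and the NF-kB list was made of genes known to be NF-kB targets.

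Immediate early genes, which cells switch on within minutes of a stimulus or of handling, differed in part. Of 33 tested, 8 were lower and 1 was higher at an unadjusted p of at most 0.05, against 10.3% and 4.16% of all genes, with a median of −0.26. The lower ones were Socs3, Dusp2, Zfp36l2 (−1.47), Fosl2 (−1.28), Gadd45a (−0.97), Ppp1r15a (−0.97), Junb (−0.85) and Klf6 (−0.63), of which Junb and Klf6 were above 0 under scaling by total counts. The higher one was Dusp6 (1.2), a phosphatase of ERK kinases. At the same p limit, 1 member was lower and 9 higher under total counts, and 2 and 9 under counts outside hemoglobin. Among members known to respond within minutes of blood collection, Fos was at 31.4 and 41.7 CPM in AngII blood and at 85.4 and 29.2 CPM in DOCA–HS blood, where replicate 1 was high. Egr1 was at 9.48 and 12.4 CPM against 24.7 and 2.98 CPM, so that the DOCA–HS libraries enclosed the AngII ones. Dusp1, at 131 and 118 CPM against 120 and 128 CPM, had a log2 fold change of −0.01 ± 0.24. Btg1, the most abundant member and a brake on proliferation, had 0.00 ± 0.27. The number of lower members was 12 without AngII replicate 1 and 12 without DOCA–HS replicate 1, and 4 when all 8 libraries shared 1 spread.

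**Figure D1:**
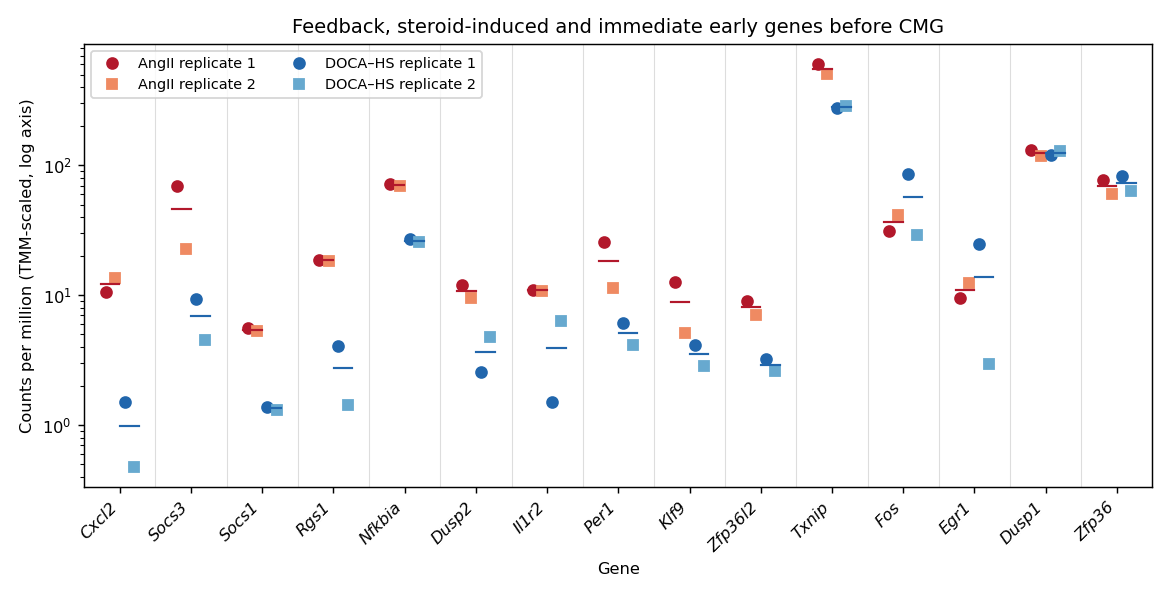
TMM-scaled CPM (log axis) of 15 feedback, steroid-induced and immediate early genes in the 2 AngII libraries (red) and the 2 DOCA–HS libraries (blue) before CMG. Horizontal lines are group means. From Cxcl2 to Txnip both blue points lie below both red points, while for Fos, Egr1, Dusp1 and Zfp36 they overlap.

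Genes that corticosteroids induce were of interest because DOCA is itself a steroid and AngII stimulates the adrenal cortex. The receptors themselves were sparse. Nr3c1, the glucocorticoid receptor, had 132 and 48 counts in AngII blood and 188 and 100 counts in DOCA–HS blood, a log2 fold change of 0.18 ± 0.26. Nr3c2, the mineralocorticoid receptor on which DOCA acts, had 0 and 0 counts in AngII blood and 4 and 5 counts in DOCA–HS blood and was not tested.

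Per1, a clock gene with strong glucocorticoid induction, stood at 25.6 and 11.4 CPM in AngII blood and at 6.11 and 4.17 CPM in DOCA–HS blood, without overlap (log2 fold change −1.85 ± 0.40, adjusted p = 0.185). Klf9, another early glucocorticoid target, was at 12.7 and 5.14 CPM against 4.16 and 2.86 CPM (−1.37 ± 0.41, adjusted p = 0.19). Txnip, an inhibitor of thioredoxin and the most abundant member, was at 601 and 501 CPM against 276 and 285 CPM (−0.97 ± 0.26, adjusted p = 0.185). Il1r2, the decoy receptor for interleukin-1, was at 11 and 10.9 CPM against 1.51 and 6.32 CPM (−1.58 ± 0.52, adjusted p = 0.202). This rested on DOCA–HS replicate 1, without which the log2 fold change was −0.77. The chemokine receptor Cxcr4 (−0.95) and the transcription factor Cebpb (−0.90) were lower as well, and Cebpd (1.21) and the repressor Bcl6 (1.09) were higher. Without DOCA–HS replicate 2 these were 0.33 for Cebpd and 0.94 for Bcl6.

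The best known readouts of mineralocorticoid and glucocorticoid action did not pass the unadjusted threshold. Sgk1, the kinase that aldosterone induces in kidney, had a log2 fold change of −0.47 ± 0.51. Tsc22d3, which encodes the glucocorticoid-induced leucine zipper, had −0.44 ± 0.26 and Fkbp5, a co-chaperone of the glucocorticoid receptor, −0.34 ± 0.39, and all 3 were above 0 under scaling by total counts (0.19, 0.36 and 0.38). Without DOCA–HS replicate 2 they were −1.62, −0.59 and −0.69, and Sgk1 then passed the criterion. Of the 27 tested members of the steroid list, 7 were lower and 2 higher at an unadjusted p of at most 0.05, against 10.3% and 4.16% of all genes. The median was −0.34, or −0.39 relative to all genes, and without AngII replicate 1 it was −0.04, or −0.11 relative to all genes. The count of lower members ran from 6 to 11 when a library was left out, with 11 without DOCA–HS replicate 2, and was 8 when all 8 libraries shared 1 spread. All 7 lower members of the steroid list stayed below 0 under total counts and under counts outside hemoglobin. At an unadjusted p of at most 0.05, 0 were lower and 7 higher under total counts, and 2 and 10 outside hemoglobin. The list medians were then 0.45 and 0.35. Of the 14 tested clock genes, Per1 and Nfil3 (−1.08) were lower and Tef (1.37) was higher, with a median of 0.21.

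The broadest difference was a lower level of red cell genes in DOCA–HS blood. Of 33 tested members of the red cell membrane and erythroid list, 29 were lower at an unadjusted p of at most 0.05 and 0 higher, and 31 lay below both AngII libraries in both DOCA–HS libraries, against 10.3% and 21.8% of all genes. The median was −0.98, or −1.04 relative to all genes, and no member passed the fold limit of 1.5 in the criterion. Structural proteins of the red cell membrane were among them. Slc4a1, the band 3 anion exchanger, was at 3396 and 3604 CPM against 1383 and 2070 CPM (−1.02 ± 0.33, adjusted p = 0.202). Sptb (−1.14), Dmtn (−1.15), Tmod1 (−1.12), Rhd (−1.14) and Aqp1 (−1.03) were lower by like amounts.

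Klf1, the master transcription factor of red cell genes, was at 386 and 352 CPM against 163 and 180 CPM (−1.10 ± 0.25, adjusted p = 0.185). Epor, the erythropoietin receptor, was at 10.5 and 11.8 CPM against 3.66 and 6.44 CPM (−1.17 ± 0.32, adjusted p = 0.185). Ahsp, the chaperone of free alpha-hemoglobin, had −1.08 and Tfrc, the transferrin receptor of young red cells, −1.08. The abundant Bnip3l, which clears mitochondria from reticulocytes, had −0.87 ± 0.34 and Slc25a39, a mitochondrial glutathione carrier, −1.10 ± 0.35. Bpgm, which makes 2,3-bisphosphoglycerate, was the most abundant member and did not pass (−0.71 ± 0.39, adjusted p = 0.453). The transcription factor Tal1 had −0.07 ± 0.57, with 27.5 and 5.52 CPM in AngII blood and 12 and 21 CPM in DOCA–HS blood, and the glucose transporter Slc2a1 was the one member above 0 (0.47 ± 0.40).

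Enzymes of heme synthesis stood in the same direction, with 9 of 15 tested members lower and 1 higher, against 10.3% and 4.16% of all genes, and a median of −0.84. The lower members numbered 6 without DOCA–HS replicate 1 and 1 when all 8 libraries shared 1 spread. Alad (−1.16), Urod (−1.0), Ppox (−1.0) and Fech (−0.79), which inserts the iron, were lower too. Of the 9 lower members, 8 stayed below 0 under total counts and 8 under counts outside hemoglobin. The median was then −0.14 and −0.17. At an unadjusted p of at most 0.05, 0 were lower and 1 higher under total counts, and 1 and 1 outside hemoglobin. Alas2, the erythroid enzyme of the first step, was at 17674 and 24617 CPM against 9373 and 13063 CPM, without overlap, yet missed the unadjusted threshold (−0.91 ± 0.41, adjusted p = 0.355). Blvrb, an enzyme of heme breakdown that is abundant in red cells, was lower (−1.2), and Hmox2, the constitutive heme oxygenase, was the higher member (0.80). The hemoglobin chain Hbb itself ran from 262402 to 607380 CPM in DOCA–HS blood against 530943 and 698455 CPM in AngII blood (−0.50 ± 0.74, adjusted p = 0.814), and its log2 fold change was −1.30 without DOCA–HS replicate 2 and 0.01 without DOCA–HS replicate 1. LOC100134871 had −1.49 ± 0.59 (adjusted p = 0.288), and in DOCA–HS replicate 2 it was low against Hbb as given above.

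Relative to all genes the median of the red cell list lay between −1.20 and −0.80 in every setting tried, and at −1.20 without DOCA–HS replicate 2. A change of scaling moves all genes by a similar amount, so it could hardly move this relative median. Under scaling by total counts the median itself was −0.22, with 0 members lower at an unadjusted p of at most 0.05, and under scaling outside hemoglobin it was −0.28, also with 0. Without AngII replicate 1 the count of lower members was 14, and when all 8 libraries shared 1 estimate of the spread it was 2. The promoters of Alas2 and Epor are shown as erythroid genes that stood low and whose windows hold the GATA motif AGATAA on either strand, in capitals, since GATA1 is the textbook activator of both.
Alas2, chrX:22895200-22895449, plus strand: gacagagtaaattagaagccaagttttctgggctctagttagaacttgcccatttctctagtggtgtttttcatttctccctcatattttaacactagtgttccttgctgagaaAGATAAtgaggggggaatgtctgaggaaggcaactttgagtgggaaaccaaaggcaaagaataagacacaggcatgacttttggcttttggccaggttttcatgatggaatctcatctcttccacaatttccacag
Epor, chr8:28770323-28770572, minus strand: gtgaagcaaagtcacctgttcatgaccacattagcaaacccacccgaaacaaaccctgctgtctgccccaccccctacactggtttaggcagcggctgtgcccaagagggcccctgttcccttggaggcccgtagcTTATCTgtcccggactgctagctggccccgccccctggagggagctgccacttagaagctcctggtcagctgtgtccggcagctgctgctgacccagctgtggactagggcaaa
These windows, again the 250 bases before the start in RefSeq's GRCr8, held 1 match each. Of 22 erythroid genes with an entry, 6 (27.3%) held AGATAA, namely Sptb, Add2, Rhd, Trim10, Trim58 and Epor, and of 11 heme genes 3 did. The shares were 10% among all promoters and 5.52% among tested genes.

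**Figure D2:**
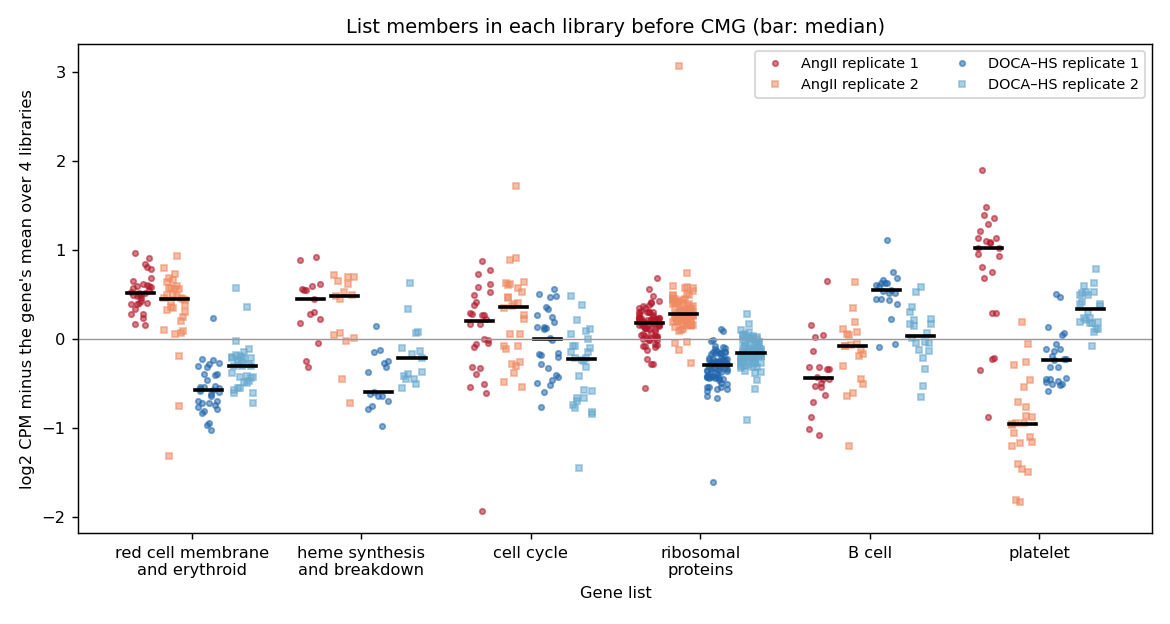
Each point is a gene's log2 CPM minus its mean over the 4 libraries, for members of 6 lists in each library before CMG, and black bars are medians. The red cell and heme medians are above 0 in both AngII libraries and below 0 in both DOCA–HS libraries, while the platelet genes separate the AngII libraries from each other.

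Part of the genes of cell division, of ribosomes and of the respiratory chain was also lower under TMM scaling. The medians of these 3 lists lay −0.56, −0.51 and −0.38 from the median of all genes. Under scaling by total counts, where the median of all genes itself was 0.84, they lay −0.55, −0.52 and −0.39 from it. A change of scaling moves all genes by a similar amount, so these distances could hardly change. Of 28 tested cell cycle genes 10 were lower and 0 higher, against 10.3% and 4.16% of all genes, with a median of −0.51. Mki67, the proliferation marker, was at 33.1 and 33.7 CPM in AngII blood and at 16.0 and 12.2 CPM in DOCA–HS blood (−1.24 ± 0.25, adjusted p = 0.185). Top2a (−1.35), Ccnb1 (−1.29), Tpx2 (−1.03) and Ube2c (−0.96), which serve chromosome untangling, entry into mitosis, the spindle and the exit from mitosis, were lower as well. The most abundant member, the thymidine kinase gene Tk1, had −0.67 and was above 0 under scaling by total counts. Of the 10 lower members, 7 stayed below 0 under total counts and 8 under counts outside hemoglobin. At an unadjusted p of at most 0.05, 0 were lower and 6 higher under either of these scalings. The lower members numbered 6 without DOCA–HS replicate 2 and 2 when all 8 libraries shared 1 spread. Past the criterion, Cenpq of the kinetochore was at 6.64 and 5.52 CPM against 2.52 and 1.55 CPM (−1.54 ± 0.35), and the histone gene Hist1h2an was at 5.76 and 6.66 CPM against 1.70 and 2.50 CPM (−1.59 ± 0.34). Named after their values were seen, the kinetochore genes Cenpt (−1.87) and Cenpu (−1.63) and the cell cycle inhibitor Cdkn1a (−1.68) were also among the 27 lower genes.

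Of 79 tested genes of cytosolic ribosomal proteins, 78 had a log2 fold change below 0 and 66 lay below both AngII libraries in both DOCA–HS libraries, against 21.8% of all genes. The median was −0.45, or −0.51 relative to all genes, with 26 lower and 0 higher at an unadjusted p of at most 0.05, against 10.3% and 4.16% of all genes. Of these 26 lower members, 3 stayed below 0 under scaling by total counts and 12 under counts outside hemoglobin. At the same p limit, 1 member was lower and 2 higher under total counts, and 1 and 10 outside hemoglobin. The abundant Rplp0, a protein of the ribosomal stalk, was at 1491 and 1757 CPM in AngII blood and at 934 and 1021 CPM in DOCA–HS blood (−0.73 ± 0.28). Under total counts its log2 fold change was 0.06. The count of lower members was 9 without AngII replicate 1, 2 without AngII replicate 2, 7 without DOCA–HS replicate 1 and 30 without DOCA–HS replicate 2, and 1 when all 8 libraries shared 1 spread. Rplp2 was a case of its own, with 23 and 143 counts in AngII blood and 14 and 13 counts in DOCA–HS blood. Its log2 fold change of −3.57 rested on AngII replicate 2 and was −0.82 without that library. Ribosomal protein genes have many near-identical processed copies, so reads of single genes are uncertain.

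Among 72 tested subunits of the respiratory chain and ATP synthase, 26 were lower and 0 higher, against 10.3% and 4.16% of all genes, with a median of −0.33. Of these 26, 16 stayed below 0 under scaling by total counts and 22 under counts outside hemoglobin. At an unadjusted p of at most 0.05, 0 were lower and 7 higher under total counts, and 0 and 13 outside hemoglobin. Atp5f1b, the catalytic beta subunit of ATP synthase, was at 665 and 834 CPM against 343 and 437 CPM (−0.94 ± 0.28, adjusted p = 0.19). Cox6a1 (−0.98) and Cox7a2 (−0.98) of complex IV and Uqcrq (−1.04) of complex III were lower by similar amounts, and Uqcrh (−0.74) was just above 0 under scaling by total counts. The lower subunits numbered 12 without AngII replicate 2 and 8 without DOCA–HS replicate 1, and when all 8 libraries shared 1 spread 1 was lower and 1 higher. Outside the lists, Mrps35 of the mitochondrial ribosome (8.42 and 14.5 CPM against 3.97 and 3.22 CPM, −1.62 ± 0.33) and Nmnat3, a mitochondrial enzyme of NAD synthesis (5.32 and 4.57 CPM against 1.70 and 1.55 CPM, −1.60 ± 0.34), were lower by the criterion. Reticulocytes hold ribosomes, mitochondria and their transcripts until they mature. The summed TMM-scaled level of the red cell list was 39869 and 46931 CPM in AngII blood and 19373 and 26468 CPM in DOCA–HS blood. As a share of all counts, without TMM scaling, the list took 3.41 and 3.23% in AngII blood and 3.19 and 2.72% in DOCA–HS blood. The part of the red cell list in the difference of the other lists was not tested.

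Several of the most abundant antioxidant genes were lower in DOCA–HS blood under TMM scaling. Of 31 tested members of the NADPH oxidase and antioxidant list 8 were lower and 1 higher, against 10.3% and 4.16% of all genes, and the median was −0.11. Prdx2, an abundant peroxiredoxin of red cells, was at 5405 and 5639 CPM in AngII blood and at 2374 and 3589 CPM in DOCA–HS blood (−0.89 ± 0.35, adjusted p = 0.282). Gpx1 (−1.05), catalase, encoded by Cat (−0.82), and Gclm (−1.11), a subunit of the enzyme that limits glutathione synthesis, were lower too. Cybb, the catalytic subunit of the phagocyte NADPH oxidase, stood the other way, at 9.12 and 5.14 CPM against 19.3 and 13.2 CPM (1.16 ± 0.34, adjusted p = 0.187). Under scaling by total counts Prdx2, Gpx1, Cat and Gclm were at −0.16, −0.33, −0.09 and −0.35. At an unadjusted p of at most 0.05, 0 members were lower and 8 higher under total counts, and 0 and 14 under counts outside hemoglobin. The lower members numbered 5 without AngII replicate 1 and 5 without DOCA–HS replicate 1, and 1 when all 8 libraries shared 1 spread. Alox15, a lipoxygenase of reticulocytes and eosinophils that is the one abundant gene of the eosinophil list, was at 6898 and 8174 CPM against 3330 and 2741 CPM (−1.31 ± 0.34, adjusted p = 0.185).

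Many genes of B cells were higher in DOCA–HS blood. Of 20 tested members 9 were higher and 0 lower at an unadjusted p of at most 0.05, against 4.16% and 10.3% of all genes, and the median was 0.64, or 0.58 relative to all genes. It was 0.38, or 0.30 relative to all genes, without AngII replicate 1, and 0.37, or 0.35 relative to all genes, without DOCA–HS replicate 1. Tnfrsf13b, the receptor TACI for the survival factors BAFF and APRIL, passed the criterion, with 4 and 3 counts in AngII blood and 37 and 13 counts in DOCA–HS blood (2.18 ± 0.57, adjusted p = 0.185). Cd79b, a signalling chain of the B cell receptor, was at 19.2 and 33.5 CPM in AngII blood and at 53.9 and 45.7 CPM in DOCA–HS blood (0.93 ± 0.30, adjusted p = 0.199). Ms4a1, which encodes CD20, was at 9.83 and 8.76 CPM against 20.2 and 14.1 CPM (0.88 ± 0.28, adjusted p = 0.199). The complement receptor gene Cr2 (0.93), the inhibitory receptor gene Cd22 (0.77), the IgE receptor gene Fcer2 (0.86), the adaptor gene Bank1 (0.65), the kinase gene Btk (0.66) and Irf4 (1.02), a factor of plasma cell differentiation, made up the 9. The transcription factor Spib (0.51 ± 0.28), among the most abundant members, did not pass.

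Beside the list, Btla, an inhibitory receptor of B and T cells, had 21 and 3 counts in AngII blood and 71 and 36 counts in DOCA–HS blood (1.67 ± 0.45, adjusted p = 0.185). Ccr6, a chemokine receptor of B cells and of some T cells, had 3 and 3 counts against 26 and 14 counts, which is a ratio of 4.55 with a 95% counting interval of 1.92 to 13.1 (exact binomial, counting error only). Cxcr5, the receptor that guides B cells to follicles, was picked out after its values were seen (1.86 ± 0.56). Of 30 tested T cell genes 0 were higher or lower at an unadjusted p of at most 0.05, with a median of 0.06, and without AngII replicate 1 there were 3 higher. The B cell difference was largest in DOCA–HS replicate 1, where the list sum was 267 CPM, against 198 CPM in replicate 2 and 133 and 174 CPM in AngII blood. Without DOCA–HS replicate 1 the higher members numbered 1, without AngII replicate 1 they numbered 3 and without DOCA–HS replicate 2 they numbered 6, and when all 8 libraries shared 1 spread 1 did.

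**Figure D3:**
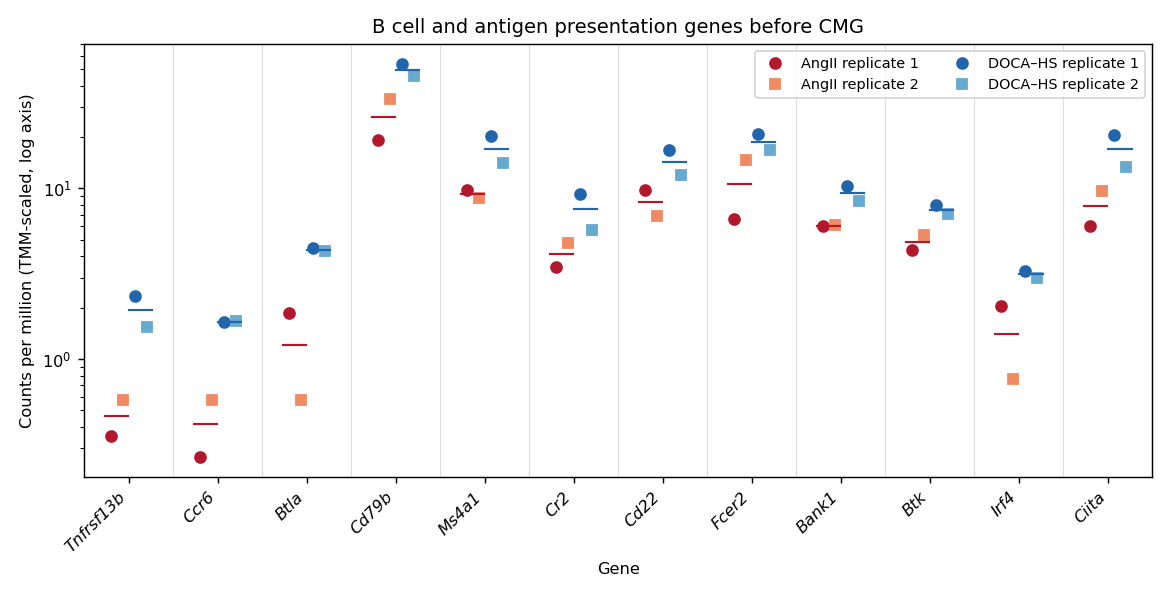
TMM-scaled CPM (log axis) of 12 genes of B cells and antigen presentation in the 2 AngII libraries (red) and the 2 DOCA–HS libraries (blue) before CMG, with group means as lines. From Tnfrsf13b to Ciita both blue points lie above both red points.

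Antigen presentation and monocyte genes leaned the same way with fewer calls. Of 14 tested genes of MHC class II presentation 2 were higher and 0 lower, against 4.16% and 10.3% of all genes, with a median of 0.43. Ciita, the master regulator of the class II genes, was at 6.02 and 9.71 CPM in AngII blood and at 20.5 and 13.4 CPM in DOCA–HS blood (1.15 ± 0.33, adjusted p = 0.186). The other was Ifi30, a thiol reductase of the antigen-processing compartment (0.70). The abundant invariant chain gene Cd74 (0.49 ± 0.34), RT1-Da (0.34 ± 0.36) and RT1-Ba (1.05 ± 0.48, adjusted p = 0.362) did not pass, and AngII replicate 1 was the lowest library for each. The higher members numbered 1 without AngII replicate 1, 7 without AngII replicate 2 and 0 without DOCA–HS replicate 1. Of 23 tested monocyte and macrophage genes 4 were higher and 0 lower, against 4.16% and 10.3% of all genes, with a median of 0.44: Spn, Mpeg1, Clec4a3 and Ifi30, at 0.70 to 1.12. They numbered 7 without AngII replicate 1, 1 without AngII replicate 2, 2 without DOCA–HS replicate 1 and 0 when all 8 libraries shared 1 spread. Of the 23, 18 had a log2 fold change above 0 and 5 below. The most abundant, Lyz2 (0.44), Psap (−0.17) and Cst3 (−0.42), did not pass. Without DOCA–HS replicate 2 these 3 genes were at −0.08, −0.60 and −0.535. Of the class I genes, RT1-CE4 was higher (7 and 10 counts against 98 and 22 counts, 2.05 ± 0.59) while the near-identical RT1-CE1 (−2.02) and RT1-CE13 (−1.51) were lower, and reads of these paralogs cannot be assigned with certainty.

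Neutrophil and platelet genes varied between libraries of the same model. The summed level of 20 tested neutrophil genes was 477 and 494 CPM in AngII blood and 311 and 825 CPM in DOCA–HS blood, so that the DOCA–HS libraries lay on either side of the AngII ones. S100a9, a subunit of calprotectin, was at 153 and 144 CPM in AngII blood and at 69.6 and 252 CPM in DOCA–HS blood (0.11 ± 0.48). The median of the list was 0.20, but 0.73 without DOCA–HS replicate 1, with 8 members higher, and −0.77 without DOCA–HS replicate 2, with 8 members lower. Of 24 tested platelet genes 0 were higher or lower, and their summed level was 2438 and 660 CPM in AngII blood against 961 and 1442 CPM in DOCA–HS blood. Leaving out AngII replicate 1 put 14 platelet genes on the higher side, and leaving out AngII replicate 2 put 15 on the lower side. Pf4, a chemokine of platelet granules, was at 498 and 161 CPM against 169 and 222 CPM. Among 17 cytotoxic lymphocyte genes Gzmk (−0.91) and Nkg7 (−0.78) were lower, 0 were higher, and the median was −0.12, with 1 lower member without any of AngII replicate 1, AngII replicate 2 or DOCA–HS replicate 1 and 4 without DOCA–HS replicate 2. Siglec5, a lectin of granulocytes, had 6 and 6 counts in AngII blood and 20 and 29 counts in DOCA–HS blood (1.55 ± 0.66). It passed the criterion in 5 of 12 alternative settings, and its log2 fold change was 0.64 without DOCA–HS replicate 2 and 0.94 without AngII replicate 1.

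Pattern-recognition and interferon genes held calls in both directions. Of 31 tested pattern-recognition genes 4 were higher, including Tlr2 (0.77) and Cd180 (1.44), a Toll-like receptor relative of B cells, and Irak1 (−0.85) and Mavs (−0.77) were lower, against 4.16% and 10.3% of all genes, with a median of 0.40 and 0 lower without DOCA–HS replicate 1. Of 46 tested interferon-stimulated genes 6 were higher and 6 lower, against 4.16% and 10.3% of all genes, with a median of 0.18. The share of lower members was thus near that of all genes, and 3 were lower without AngII replicate 1. When all 8 libraries shared 1 spread, 3 interferon-stimulated genes were higher and 1 lower. The lower members included the most abundant, Rsad2 (2499 and 3359 CPM against 1176 and 2001 CPM, −0.88) and Irf7 (−0.65), and also Cmpk2 (−1.15), Isg20 (−0.92), Lgals3bp (−0.77) and Ube2l6 (−0.82). The higher members, Ifi47 (1.17), Psmb8 (1.17), Gbp5 (0.78), Rtp4 (1.47), Ddx58 (1.05) and Helz2 (0.75), were at 24.5 CPM or less in every library. Irf7 and Mavs were above 0 under scaling by total counts.

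The renin–angiotensin system itself was hardly visible in blood RNA. Of 36 genes of the renin–angiotensin, endothelin and natriuretic peptide list in the table, 8 passed the filter. Agt, Ace and the receptor genes Agtr1a, Agtr1b and Agtr2 had 0 counts in all 4 libraries, which allows up to 3 counts in each. Furin, a protease that cleaves the prorenin receptor and many growth factor precursors, was the one member that passed. It was at 172 and 220 CPM in AngII blood and 85.1 and 144 CPM in DOCA–HS blood (−0.78 ± 0.30, adjusted p = 0.283). Of 29 tested ion transport genes 2, Nedd4l and Kcnn4, were lower, a share below the 10.3% of all genes, and 0 were higher, with a median of −0.04. Nedd4l, the ubiquitin ligase that removes the epithelial sodium channel and is inhibited by Sgk1, was at 108 and 110 CPM in AngII blood and 50.9 and 47.6 CPM in DOCA–HS blood (−1.15 ± 0.23, adjusted p = 0.185). Kcnn4, the calcium-activated potassium channel of red cells and lymphocytes, was at 97.7 and 78.6 CPM against 52.7 and 51.6 CPM (−0.76 ± 0.24), and was about 0 (0.02) under scaling by total counts.

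Of the remaining lists, 3 of 33 heat shock genes were lower, among them the abundant Dnajb2 (−1.02), and 0 were higher, a share of lower members near the 10.3% of all genes, with 0 lower without AngII replicate 2 or DOCA–HS replicate 1 and 6 lower without DOCA–HS replicate 2. Of 41 proteasome subunits 8 were lower and 2 higher, against 10.3% and 4.16% of all genes, with a median of −0.13. Of these 8, 3 stayed below 0 under scaling by total counts and 5 under counts outside hemoglobin. The lower subunits numbered 2 without AngII replicate 2 and 0 without DOCA–HS replicate 1 or when all 8 libraries shared 1 spread. Of 21 cholesterol genes 2 were higher, among them Mvk (1.22), an enzyme of cholesterol synthesis, and 0 were lower, against 4.16% and 10.3% of all genes, with 4 higher without AngII replicate 1 and 1 without DOCA–HS replicate 1. Of 4 endothelial genes and 1 hepatocyte gene tested 0 passed the unadjusted threshold, and of 20 heart muscle genes 0 passed the filter.

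Genes higher in DOCA–HS blood by the criterion were mostly sparse, with a median of 4 counts per library in AngII blood and 22 in DOCA–HS blood. Vps18, a subunit of the complexes that tether membranes to lysosomes, had 7 and 0 counts in AngII blood and 32 and 24 counts in DOCA–HS blood (2.53 ± 0.70, adjusted p = 0.185). Dnaaf5, an assembly factor of ciliary dynein, had 5 and 1 counts against 27 and 15 counts (2.25 ± 0.59, adjusted p = 0.185). Tnfaip2, a gene induced by tumour necrosis factor, had 4 and 6 counts against 38 and 21 counts (1.92 ± 0.57, adjusted p = 0.19). Coq2, an enzyme of coenzyme Q synthesis (1.82), Sec22a (1.79), the chloride exchanger gene Clcn4 (1.64) and Bmf, a pro-apoptotic member of the BCL2 family (1.60), followed. With at least 10 counts demanded in every library, 2 genes remained higher and 16 lower by the criterion.

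**Figure D4:**
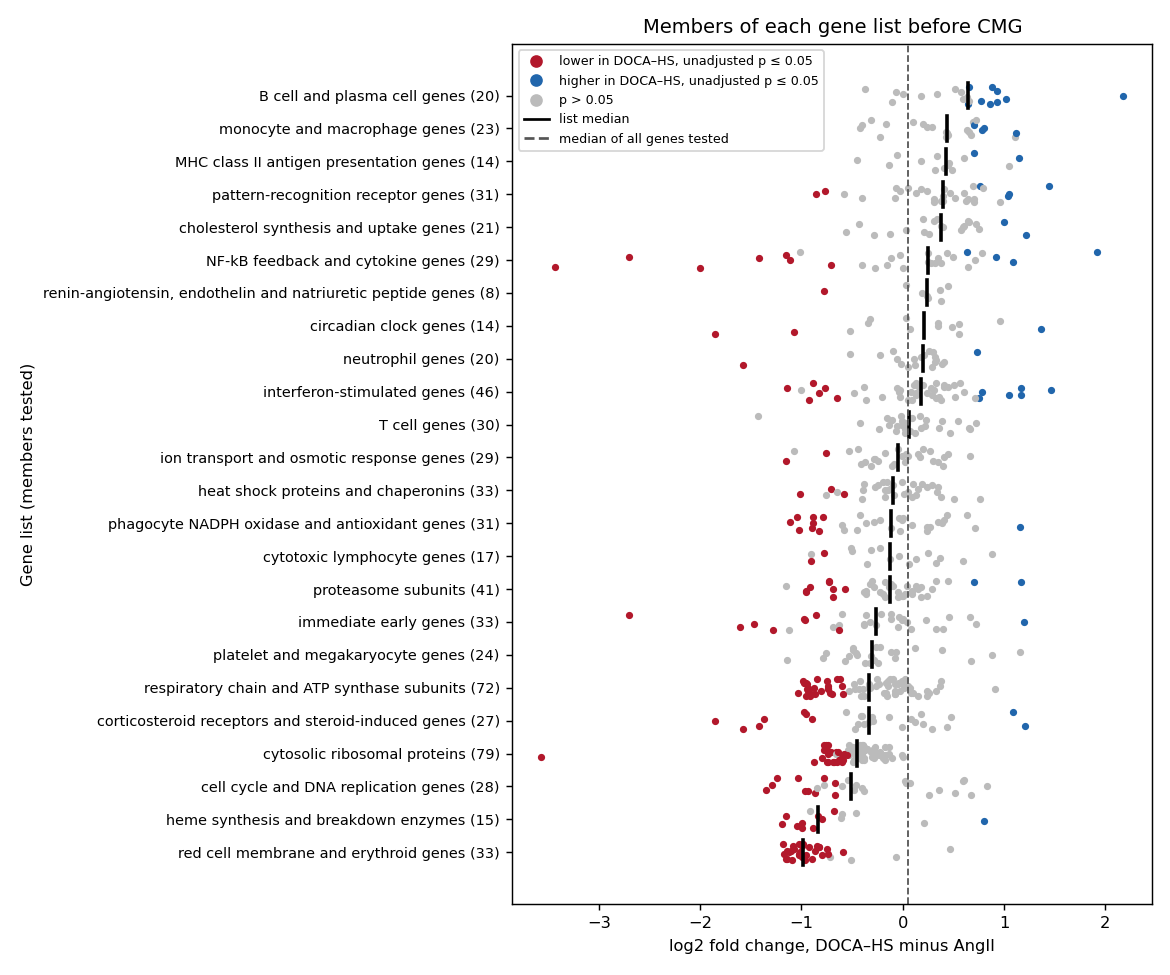
Log2 fold changes (DOCA–HS minus AngII) of the tested members of 24 gene lists before CMG, ordered by the list median (black bar). Red points are lower and blue points higher at an unadjusted p of at most 0.05, and the dashed line is the median of all genes tested (0.06). Red cell genes sit as a block near −1, B cell genes sit to the right, and single NF-kB feedback genes reach −3.43.

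Whether the models still differed in the same genes after 4 weeks of CMG could be asked of the other 4 libraries, taken at weeks 5 and 7. DOCA–HS replicate 2 after CMG was a poor library, with 84.3% of its counts on hemoglobin and 2686 genes with at least 10 counts, so values are also given without it. Of the 27 lower genes 24 were tested after CMG, 15 of them again below 0 with a median of −0.78. Of all genes 45.4% lay above 0 after CMG and the rest at or below it. The median of all genes tested after CMG was −0.06. Of the 24, 2 passed the criterion in the same direction, a count given without the share of all genes. These were Cxcl2 (−2.07, and −2.05 without that library) and Thbd, the endothelial and monocyte thrombin receptor thrombomodulin (−2.99, and −2.78 without that library). Of the 32 higher genes 27 were tested after CMG, 12 of them above 0, beside 45.4% of all genes. Of the 27, 0 passed the criterion in the same direction, a count also given without the share of all genes.

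The difference between the models itself changed with an adjusted p under 0.05 for 0 of 7994 genes (0%), by edgeR's test of the interaction over all 8 libraries, where the lowest adjusted p was 0.881. Libraries of the same number before and after CMG were treated as independent, since nothing states whether they came from the same rats. DESeq2 gave 1 such gene. At an unadjusted p of at most 0.05, 202 genes (2.53%) were more negative before than after CMG and 97 genes (1.21%) more positive. Nfkbia was among the former, from −1.42 before to 0.01 after. Among the latter were Dusp6 (before minus after 2.06), Bcl6 (1.46), Birc3 (1.42), Tnfrsf13b (3.17) and Ccr6 (2.56), each with an adjusted p of 0.881. The genes named here were chosen after their values were seen.

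The median of the red cell list was −0.98 before and 0.01 after CMG, and −0.41 after CMG without DOCA–HS replicate 2. For ribosomal genes it was −0.45 before, 0.59 after and −0.16 without that library, and for respiratory genes −0.33, 0.74 and −0.10. For B cell genes it was 0.64 before, −0.53 after and −0.24 without that library, and for steroid-induced genes −0.34, −0.23 and −0.25. Of 73 respiratory genes 15 had a more negative difference before than after at an unadjusted p of at most 0.05, against 2.53% of all genes, and of 33 red cell genes 0 did. The quality of that library moved with these values, and its part in them beyond the medians given was not tested.

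**Figure D5:**
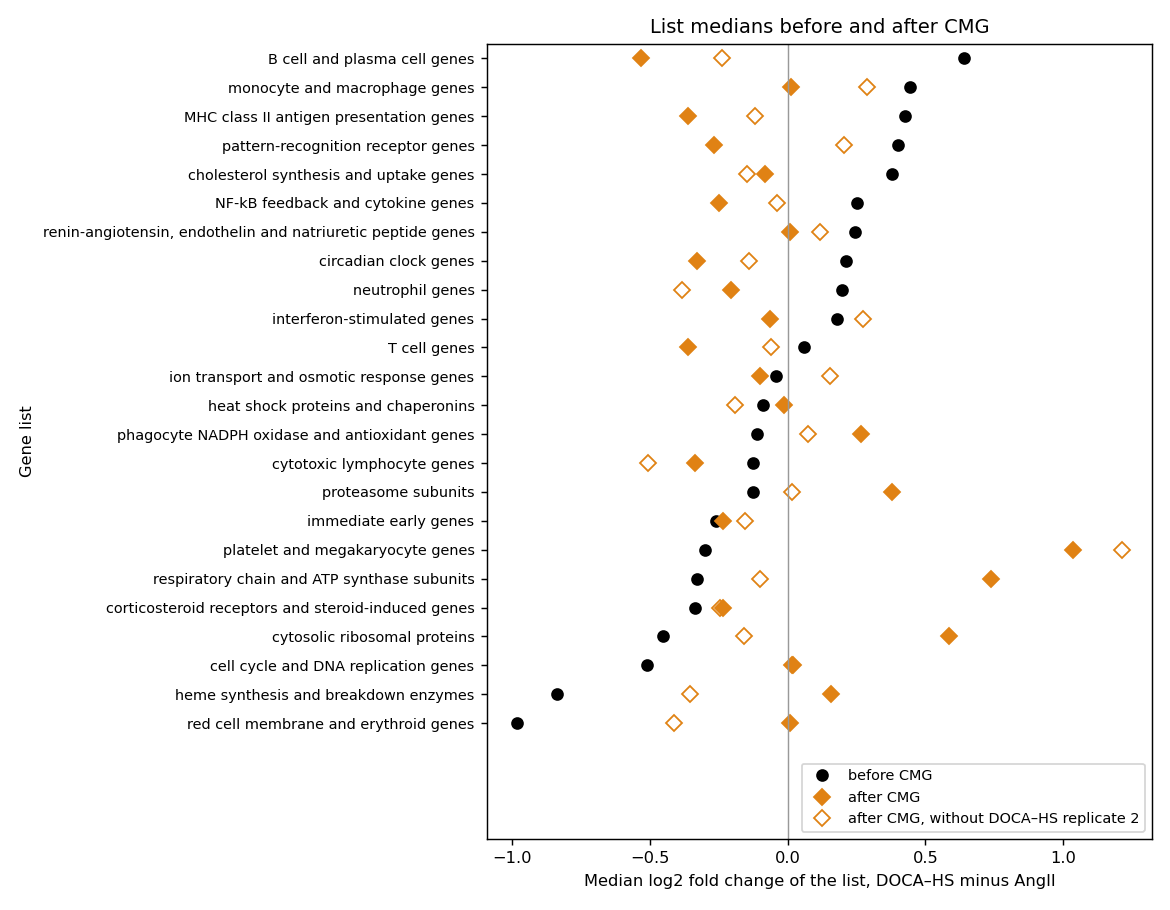
Median log2 fold change (DOCA–HS minus AngII) of each list before CMG (black), after CMG (filled orange) and after CMG without DOCA–HS replicate 2 (open orange). The red cell and heme medians near −1 before CMG lie nearer 0 after it, and the B cell median moves from 0.64 to below 0.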

How the data were processed

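Whole blood RNA of 4 libraries (AngII and DOCA–HS before CMG, 2 each) was compared. Per the labels blood was drawn by cardiac puncture into heparin, and directional libraries were sequenced. The authors aligned reads to rn6 with HISAT2 and counted them per gene by strand with HTSeq, and deposited these counts without normalization. They state that hemoglobin annotations were removed, while Hbb and LOC100134871 are the most abundant genes deposited. The table held 0 columns outside the 8 libraries, and DESeq2 was the authors' own test.

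Here genes were filtered (filterByExpr), scaled (TMM) and tested with edgeR 4.0.16 (glmQLFit, glmQLFTest) in R 4.3.3, with Benjamini–Hochberg adjustment. The code was tested on simulated data. Standard errors are the log2 fold change divided by the root of the quasi-F. DESeq2 1.42.0 and limma 3.58.1 (voom) served as alternatives, with other scalings, filters, left-out libraries and a replicate block. Intervals cover counting error only. Reads are not molecules here, so depth limits genes with few counts.

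The 29 gene lists and the comparison were chosen with earlier results of these data known. Genes were named by rule: the 10 lower and 10 higher genes of smallest p that met the criterion, averaged 10 counts or more and did not overlap between groups, list members past it (at most 6), the 3 most abundant members of each list, and Agtr1a, Nr3c1, Nr3c2, Sgk1, Tsc22d3, Per1 and Fkbp5. Other list members named passed an unadjusted p of 0.05 and were chosen after their values were seen, as were the immediate early genes named as alike. Lists are described by counts and medians, with no test. Promoters were matched to genes by symbol. Some list members that the naming rule covers are not reported here.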

Additional observations from a re-analysis of the deposited data

Results flagged for a closer look

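Rplp2, a protein gene of the ribosomal stalk, stood out because the models differed in opposite directions before and after CMG. Its log2 fold change of DOCA–HS minus AngII was −3.57 before CMG and 2.61 after it, or 3.20 after it without DOCA–HS replicate 2. The interaction was −6.29 ± 1.45 (SE), with an unadjusted p of 0.00123 and an adjusted p of 0.881 by edgeR's quasi-likelihood test, so it did not pass over all genes. Before CMG the value rested on AngII replicate 2, with 143 counts against 13 to 23 in the other 3 libraries.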

How the results depend on the processing

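Against 32 higher, 27 lower and 0 adjusted genes in the main fit, DESeq2 gave 17 higher genes and 330 with an adjusted p under 0.05, scaling by total counts 555, 4 and 5, scaling outside hemoglobin 422, 5 and 320, no filter 81, 72 and 314, and a minimum of 10 counts in every library 2 higher and 16 lower. A fold limit of 1 gave 155 higher and 242 lower. Leaving out 1 library gave 42 to 171 higher, 52 to 127 lower and 2 to 176 adjusted genes. With all 8 libraries in 1 fit there were 34 higher and 33 lower genes, and 270 at an unadjusted p of at most 0.05 in place of 1081. The replicate block gave 32 higher, 29 lower and 1 adjusted gene. Before CMG, the difference of replicate 1 minus replicate 2 barely correlated between the models (0.05 over 7388 genes). That is a hint from the data and not from the design. Only the before libraries entered it. It therefore cannot tell whether libraries of the same number before and after CMG came from the same rats. The interaction count of 0 became 1 with DESeq2, 20 with no filter and 0 to 146 when a library was left out, the highest without DOCA–HS after replicate 1. Mcpt1l1, a mast cell protease gene, turned from −0.63 to 2.68 without AngII replicate 1, and was −1.33 without AngII replicate 2. Cxcl2, Rgs1, Socs3, Vps18, Dnaaf5 and Sec22a stayed past the criterion in every alternative that tested them. The causes of these changes were not tested. Depth limits the genes with few counts, most of them among the higher ones.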
